A study of Mus musculus with 16 samples.

Results

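The core circadian clock was described through 10 genes in mouse quadriceps: the activators Arntl (Bmal1), Clock and Npas2, the Period repressors Per1, Per2 and Per3, the Cryptochrome repressors Cry1 and Cry2, and the REV-ERB receptors Nr1d1 and Nr1d2. They were taken by symbol from a table of 17370 genes. All 10 passed the filter on low counts, which left 15411 genes for testing. The genes were chosen by their known roles and with their CPM per library and the likeness of the limbs already seen, so the levels and differences below describe them, and nothing is inferred from how many of them differ.

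The study sequenced RNA from 16 quadriceps samples, the muscle group on the front of the thigh, after transection of the anterior cruciate ligament (ACL). For the 7 days after surgery mice drank either a CSF1-R inhibitor (40 mg/kg) or, as placebo, 0.5% sucrose, and muscle titled healthy or injured was collected. CSF1-R is the receptor through which macrophages receive a growth and survival signal. The 4 groups, each of 4 libraries titled as biological replicates, were healthy placebo, injured placebo, healthy inhibitor and injured inhibitor. All groups drank placebo or drug after the surgery, and the deposited design text speaks of muscle before and after transection where the titles say healthy and injured. Strain, genotype, sex, age and the time of day of collection were not given in the labels used here. Column names joined each healthy library to 1 injured library by a common stem, and a stem was read as the limbs of 1 animal, which the labels do not state. Libraries are named by group and replicate number, so that placebo 1 is the stem of healthy placebo 1 and injured placebo 1. In the column names placebo 1 to 4 were stems q5 to q8, and all inhibitor stems had lower numbers. Whether these numbers follow the order or hour of collection is not stated. If they do, that order and the drink cannot be told apart. The titles call the drug groups CSF1R treated, while the treatment protocol names an inhibitor.

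The clock is a loop of transcription and repression that runs once a day in most cells, skeletal muscle included. ARNTL pairs with CLOCK or NPAS2 and activates genes through E-boxes, among them the Period and Cryptochrome genes, whose proteins return to the nucleus and inhibit the pair. In a further loop the REV-ERB receptors repress Arntl and ROR receptors activate it, while DBP, TEF and HLF activate, and NFIL3 represses, genes with D-boxes.

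Libraries held 20.12 to 27.13 M (mega) counts. Values are given as CPM, counts per M counts of the library after TMM scaling in edgeR, and a count of 3 was worth 0.109 to 0.159 CPM. The tissue carried its defining muscle markers: the summed CPM of 7 fibre genes, among them Ckm, Acta1 and Myh4, was 84000 to 172000. Csf1r, the gene of the inhibited receptor, had means of 12 ± 12.9 CPM (SD, n = 4) in healthy placebo, 37.7 ± 28.2 in injured placebo, 8.33 ± 4.63 in healthy inhibitor and 8.75 ± 2.37 in injured inhibitor. A set of 4 libraries (healthy placebo 4, injured placebo 2, injured placebo 3 and healthy inhibitor 1) stood apart through 7 joint lining and cartilage markers, with summed CPM of 317, 297, 344 and 220, against 10.9 to 45.5 in the other 12. The inhibitor differences of the members are given with and without them below. In placebo 1, several clock genes lay away from the other placebo libraries, and fits without that stem are given as well. Counts of bulk tissue cannot tell fewer cells of a type from less RNA per cell.

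Per kilobase of annotated exon, Nr1d1 was the most abundant member at 54.6 ± 11.2 CPM per kb (SD, n = 16), followed by Nr1d2 at 19.9 ± 3.61. Each of these exceeded the next gene in 16 of 16 libraries. Cry1 (5.58 ± 1.62), Cry2 (5.38 ± 1.01), Per1 (4.94 ± 2.43), Arntl (3.76 ± 1.45) and Clock (3.34 ± 0.618) formed a middle range in which each exceeded its next neighbour in only 8 or 9 libraries. Clock in turn exceeded Per3 (2.27 ± 1.12) in 11 libraries, and Per3 exceeded Per2 (0.845 ± 0.539) in all 16. Npas2 was lowest at 0.486 ± 0.23, below Per2 in 10 libraries. These means pool both drinks, and the order of some neighbours turned with the drink. In healthy and injured placebo, Per1 had means of 7.06 and 6.88 CPM per kb, above Arntl at 3.06 and 2.49. With the inhibitor Per1 was at 3.15 and 2.68, below Arntl at 4.82 and 4.66. Cry1 was below Cry2 with placebo (4.98 and 3.67 against 6.1 and 6.13). It was above Cry2 with the inhibitor (6.82 and 6.82 against 4.84 and 4.44). The ordering compares levels per length and says nothing of protein.

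**Figure D1:**
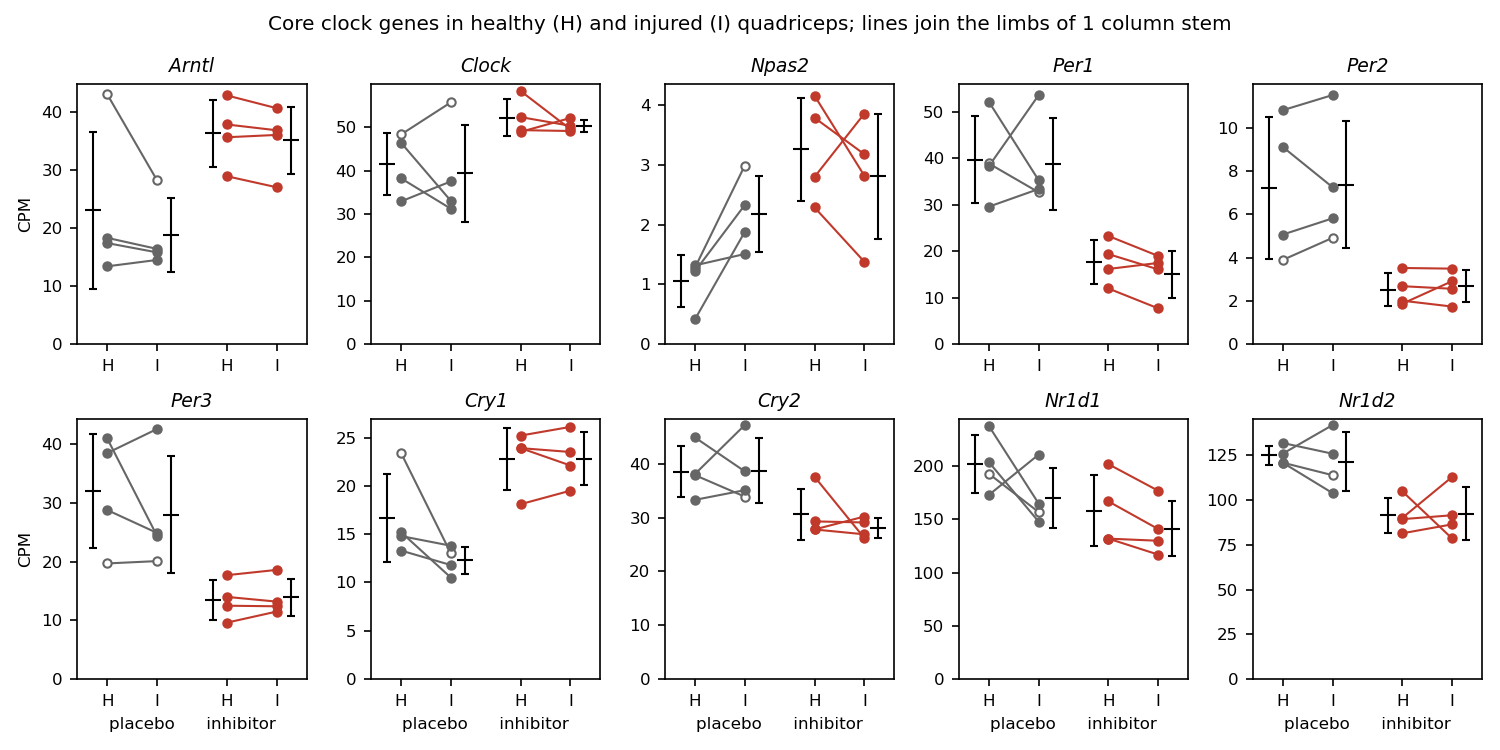
Each panel plots 1 core clock gene in CPM (linear axis from 0) in healthy (H) and injured (I) quadriceps under placebo (grey) and inhibitor (red); points are libraries, lines join the limbs of a stem, open points are placebo 1, and bars beside the points are the mean ± SD of 4 libraries. Per1, Per2 and Per3 sit lower in all 8 inhibitor libraries than in any placebo library, and the open points of Arntl lie above those of the other placebo libraries.

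Of the activators, Arntl was higher with the inhibitor than in every placebo stem except placebo 1. Arntl (ENSMUSG00000055116, chr7:113207465-113314126, plus strand, GRCm38) encodes the obligate partner of the activating pair. It was measured at 43.0, 18.3, 17.4 and 13.4 CPM in healthy placebo 1 to 4 and at 28.2, 16.4, 15.8 and 14.5 in injured placebo 1 to 4. Under the inhibitor it was 35.6, 28.9, 37.8 and 42.8 CPM in the healthy limb and 36.0, 27, 36.8 and 40.6 in the injured limb. Both libraries of placebo 1 reached the level of the inhibitor libraries, while the other 6 placebo libraries, at 13.4 to 18.3 CPM, lay below every inhibitor library. The log2 difference between inhibitor and placebo was 0.65 ± 0.31 (SE) in healthy and 0.91 ± 0.32 in injured muscle. Without both placebo 1 libraries it was 1.15 ± 0.16 and 1.18 ± 0.16.

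Clock (ENSMUSG00000029238, chr5:76209868-76304792, minus strand), which encodes a partner of ARNTL with histone acetyltransferase activity, varied less. It was 48.3, 46.4, 38.2 and 32.9 CPM in healthy placebo 1 to 4, and 52.3, 48.9, 49.3 and 58.3 in healthy inhibitor 1 to 4. These groups did not overlap, although the highest placebo and lowest inhibitor library nearly met. In the injured limb placebo libraries ran from 31.2 to 55.7 CPM and overlapped the inhibitor libraries at 49.1 to 52.1. The log2 difference was 0.33 ± 0.16 in healthy and 0.35 ± 0.16 in injured muscle, and the latter was 0.11 ± 0.15 with the 4 joint-marker libraries removed and 0.57 ± 0.11 without both placebo 1 libraries.

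Npas2 (ENSMUSG00000026077, chr1:39193731-39363236, plus strand), a paralogue that can take the place of CLOCK, was near the lower end of measurement, with 10 to 99 counts per library. Healthy placebo 1 to 4 held 1.28, 1.22, 0.416 and 1.32 CPM and injured placebo 1 to 4 held 2.99, 2.33, 1.88 and 1.51. Every injured placebo library exceeded every healthy placebo library. With the inhibitor the values were 4.16, 2.29, 3.79 and 2.80 CPM in healthy and 2.82, 1.38, 3.18 and 3.86 in injured muscle, and the limbs overlapped. Healthy inhibitor muscle exceeded healthy placebo muscle without overlap, at a log2 difference of 1.62 ± 0.38 (3.07-fold), whereas the injured groups overlapped, at 0.37 ± 0.36.

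The Period genes were lower in every inhibitor library than in every placebo library, in both limbs. The proteins they encode bind Cryptochromes and carry the repressive signal into the nucleus. Per1 (ENSMUSG00000020893, chr11:69095217-69109960, plus strand) was 38.9, 29.6, 52.2 and 38.3 CPM in healthy placebo and 32.7, 33.4, 35.3 and 53.6 in injured placebo 1 to 4. In inhibitor 1 to 4 it was 23.3, 12, 19.4 and 16.2 CPM in the healthy limb and 19.0, 7.72, 16.1 and 17.5 in the injured limb. The lowest values of both limbs under the inhibitor came from inhibitor 2. Per1 was 2.24-fold lower in healthy muscle (log2 difference -1.17 ± 0.27) and 2.57-fold lower in injured muscle (-1.36 ± 0.27).

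Per2 (ENSMUSG00000055866, chr1:91415982-91459324, minus strand), with 38 to 275 counts per library, differed most among the Period genes. It was 3.89, 5.06, 9.11 and 10.8 CPM in healthy placebo 1 to 4 and 4.91, 5.81, 7.25 and 11.5 in injured placebo 1 to 4. With the inhibitor it was 3.52, 1.87, 2.68 and 2.01 CPM in healthy and 3.49, 2.91, 2.56 and 1.74 in injured muscle. Both limbs of placebo 1 were the lowest of their placebo groups and both limbs of placebo 4 the highest. The log2 difference was -1.51 ± 0.35 in healthy muscle (2.86-fold lower) and -1.47 ± 0.35 in injured muscle (2.76-fold lower).

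Per3 (ENSMUSG00000028957, chr4:151003652-151044665, minus strand), the member of the family least required for rhythm, followed the same order of groups. It was 19.7, 28.8, 41.0 and 38.5 CPM in healthy placebo and 20.1, 24.9, 24.4 and 42.6 in injured placebo 1 to 4. Inhibitor 1 to 4 held 12.5, 17.7, 9.61 and 14 CPM in the healthy limb and 12.4, 18.6, 11.5 and 13.2 in the injured limb. Placebo 1 was again lowest among placebo libraries, and its lower value, 19.7 CPM, was close to the highest inhibitor value of 18.6. Per3 was 2.38-fold lower in healthy (-1.25 ± 0.27) and 2.01-fold lower in injured muscle (-1.01 ± 0.27).

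The Cryptochromes went in opposite directions. Cry1 (ENSMUSG00000020038, chr10:85131700-85185064, minus strand), the stronger repressor of the ARNTL and CLOCK pair, was 23.4, 15.2, 13.3 and 14.8 CPM in healthy placebo and 13.0, 10.5, 11.8 and 13.8 in injured placebo 1 to 4. It was 23.9, 18.1, 25.2 and 23.9 CPM in healthy inhibitor and 22.1, 19.5, 26.1 and 23.5 in injured inhibitor 1 to 4. Inhibitor libraries were higher without overlap in the injured limb. In the healthy limb only healthy placebo 1 reached into their range. The log2 difference was 0.45 ± 0.16 in healthy and 0.89 ± 0.17 in injured muscle (1.86-fold).

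Cry2 (ENSMUSG00000068742, chr2:92403646-92434043, minus strand), a repressor of the same kind, ran from 33.3 to 44.9 CPM in healthy placebo and from 33.9 to 47.2 in injured placebo. Healthy inhibitor libraries were at 27.8 to 29.3 CPM apart from healthy inhibitor 2 at 37.6, and injured inhibitor libraries at 26.2 to 30.2. The groups overlapped in the healthy limb through that 1 library and did not overlap in the injured limb. Log2 differences were -0.33 ± 0.12 and -0.46 ± 0.13. The ratio of Cry1 to Cry2 counts within a library, which cancels library scaling, was 0.291 to 0.616 in the 8 placebo libraries and 0.481 to 0.969 in the 8 inhibitor libraries.

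The REV-ERB receptors, which bind heme and repress Arntl, were lower with the inhibitor by smaller amounts. Nr1d1 (ENSMUSG00000020889, chr11:98767932-98775333, minus strand) had group means of 202 ± 27.5 CPM (SD, n = 4) in healthy placebo, 170 ± 28.3 in injured placebo, 158 ± 33.5 in healthy inhibitor and 141 ± 26.1 in injured inhibitor, and all groups overlapped. Nr1d2 (ENSMUSG00000021775, chr14:18204054-18239127, minus strand) was 121, 121, 132 and 126 CPM in healthy placebo and 89.4, 90.1, 81.5 and 105 in healthy inhibitor 1 to 4. These healthy groups did not overlap. Injured placebo ran from 104 to 142 CPM and injured inhibitor from 78.6 to 113. Log2 differences were -0.35 ± 0.16 and -0.27 ± 0.16 for Nr1d1, and -0.45 ± 0.12 and -0.40 ± 0.12 for Nr1d2, in healthy and injured muscle.

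The promoters of Per1, Per3 and Cry1 are shown because these repressors differed between the drinks in opposite directions and because their sequence just upstream of a start holds a motif through which clock factors act. Sequences of 250 bases before a RefSeq start (GRCm38.p6) were found for 9 of the 10 genes. None was available for Per2, which was not searched. Capitals mark an E-box (CACGTG) in Per1, D-boxes (TTATGTAA) in Per3, and in Cry1 an E-box and the reverse complement of the E-prime box (CACGTT).
Per1, chr11:69098699-69098948, plus strand: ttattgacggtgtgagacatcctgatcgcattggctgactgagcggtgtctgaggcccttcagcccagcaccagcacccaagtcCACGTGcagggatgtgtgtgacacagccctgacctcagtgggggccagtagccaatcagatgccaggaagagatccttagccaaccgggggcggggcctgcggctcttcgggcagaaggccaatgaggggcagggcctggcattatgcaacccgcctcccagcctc
Per3, chr4:151044666-151044915, minus strand: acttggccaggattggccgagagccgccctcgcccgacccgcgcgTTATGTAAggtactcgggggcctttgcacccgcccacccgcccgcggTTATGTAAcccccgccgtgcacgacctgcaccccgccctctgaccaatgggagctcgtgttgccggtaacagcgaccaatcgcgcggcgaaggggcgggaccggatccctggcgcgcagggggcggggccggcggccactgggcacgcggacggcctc
Cry1, chr10:85185055-85185304, minus strand: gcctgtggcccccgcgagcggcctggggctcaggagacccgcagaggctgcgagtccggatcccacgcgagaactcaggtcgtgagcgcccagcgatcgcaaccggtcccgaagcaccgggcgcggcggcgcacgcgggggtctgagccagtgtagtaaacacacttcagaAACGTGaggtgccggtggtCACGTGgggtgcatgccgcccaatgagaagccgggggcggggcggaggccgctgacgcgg
In all, 5 motifs were searched on both strands in these windows of 32851 promoters. The 9 genes had 13 starts in all, and shares over all promoters count each start. The E-box was present in 6.02% of all promoters, at 1 of the 2 starts of Per1 (not at the one preceded by chr11:69099902-69100151) and at that of Cry1. The E-prime box was present in 3.85% of all promoters and in those of Cry1, Cry2 and Nr1d1. The D-box (TTATGTAA or TTACGTAA) was in 0.93% of all and among the members in Per3. The ROR element (TAGGTCA, 2.23% of all) and the cAMP response element (TGACGTCA, 1.55%) matched none of the 9 genes searched in this window. The E-prime box and E-box letters differ in the last base and so cannot be counted at the same site in the same orientation. A match describes letters alone.

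Set side by side, the inhibitor comparisons gave 4 members above 0 (Arntl, Clock, Npas2 and Cry1) and 6 below (Per1, Per2, Per3, Cry2, Nr1d1 and Nr1d2) in each limb, where 46% of all genes lay above 0 in healthy and 46.9% in injured muscle. No member passed an adjusted p of 0.05 in edgeR's quasi-likelihood test over 15411 genes, and neither did any other gene (0% called in both limbs). At an unadjusted p of 0.05, edgeR listed 514 genes (3.34%) in healthy muscle, 9 members among them (all but Arntl), and 2289 genes (14.9%) in injured muscle, with 8 members (all but Npas2 and Nr1d1). DESeq2 on the same genes called 11 genes in healthy muscle, among them Npas2, Per1, Per2 and Per3, and 256 in injured muscle, among them Per1, Per2, Per3 and Cry1. The members' adjusted p in edgeR ran from 0.66 to 1 in healthy and from 0.1 to 0.68 in injured muscle. Without injured placebo 4, edgeR called 38 genes in injured muscle, among them Cry1 (adjusted p = 0.047), and without healthy placebo 1 it called 1 gene in healthy muscle.

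Groups did not overlap for 2 members higher (Clock and Npas2) and 4 lower (the Period genes and Nr1d2) in healthy muscle, where 0.96% of all genes were higher and 1.59% lower without overlap. In injured muscle it was 1 member higher (Cry1) and 4 lower (the Period genes and Cry2), against 2.77% and 2.86% of all genes. The median absolute log2 difference of the members was 0.55 in healthy and 0.68 in injured muscle, beside 0.13 and 0.20 over all genes. Since the genes were chosen with these values known, these counts describe them. The limbs of a stem are no independent samples of the drink, if a stem is an animal.

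With the counts of the limbs of each stem added, leaving 4 stems against 4, the log2 differences were 0.78 ± 0.31 for Arntl, 0.36 ± 0.12 for Clock, 0.93 ± 0.26 for Npas2 and 0.66 ± 0.14 for Cry1. They were -1.24 ± 0.22 for Per1, -1.49 ± 0.31 for Per2, -1.12 ± 0.24 for Per3, -0.38 ± 0.09 for Cry2, -0.30 ± 0.12 for Nr1d1 and -0.42 ± 0.08 for Nr1d2. Again edgeR called 0 genes (0%), with 2279 (14.8%) and all 10 members at an unadjusted p of 0.05. DESeq2 called 573 of 15411 genes, and 7 of the 10 members (Npas2, the Period genes, both Cryptochromes and Nr1d2). Leaving out placebo 1, edgeR called 1541 of 15411 genes in this comparison, among them 9 of the 10 members, all but Nr1d1. Each other stem left out gave 0 calls, so that the number of calls turned on placebo 1.

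**Figure D2:**
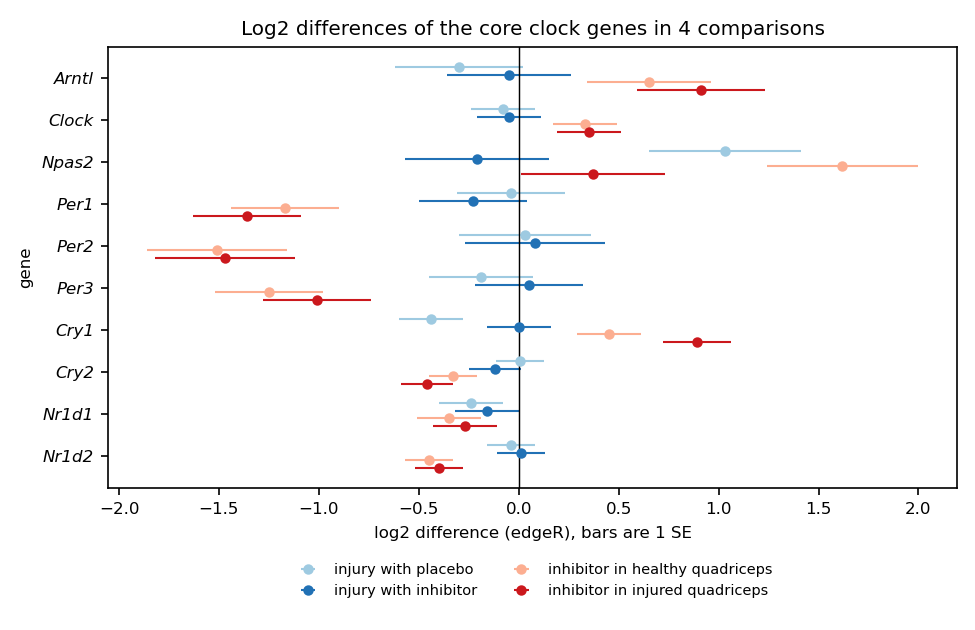
Points give the log2 difference (horizontal axis, edgeR) of each core clock gene (vertical axis) for injured minus healthy muscle with each drink (blue) and for inhibitor minus placebo in each limb (red), with bars of 1 SE. The red points of Per1, Per2 and Per3 lie between -1.51 and -1.01, and most blue points have bars that reach 0.

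Markers of other cell types were read in the same groups, and edgeR called none of them. The summed CPM of 10 macrophage markers was 15.4 to 194 in healthy placebo and 23.2 to 77.6 in healthy inhibitor, with medians of 40.8 and 39.3. It was 56.1 to 380 in injured placebo and 28 to 54.7 in injured inhibitor, with medians of 211 and 45.8. The 4 libraries high in joint markers held the highest macrophage sums of their groups. These were 380 and 337 in injured placebo 2 and 3, 194 in healthy placebo 4 and 77.6 in healthy inhibitor 1. Injured placebo 1 and 4 held 84.6 and 56.1. Of the 10 macrophage markers, 9 were below 0 for the inhibitor in healthy and 10 in injured muscle, and none was at 0 CPM throughout. The 6 slow fibre genes were all above 0 for the inhibitor in each limb, with medians of 0.96 in healthy and 0.33 in injured muscle. Their summed CPM overlapped, at 127 to 1540 in healthy placebo and 78.7 to 2520 in healthy inhibitor. In injured muscle it was 93.7 to 3070 with placebo and 188 to 3040 with the inhibitor. The part of macrophage or slow fibre content in the clock differences was not tested. The joint marker sum was 28.8 to 37.3 in injured inhibitor and 17.5 to 344 in injured placebo. Without the 4 libraries high in these markers, the inhibitor differences in healthy and injured muscle were -1.34 ± 0.34 and -1.51 ± 0.34 for Per1, -1.46 ± 0.38 and -1.62 ± 0.38 for Per2, and -1.12 ± 0.35 and -1.17 ± 0.36 for Per3. For Cry1 they were 0.37 ± 0.19 and 0.77 ± 0.21, and for Arntl 0.47 ± 0.37 and 0.72 ± 0.40. For Clock they were 0.23 ± 0.14 and 0.11 ± 0.15, and for Npas2 1.60 ± 0.45 and 0.33 ± 0.46. Cry2 was at -0.30 ± 0.15 and -0.53 ± 0.16, Nr1d1 at -0.34 ± 0.18 and -0.38 ± 0.19, and Nr1d2 at -0.43 ± 0.14 and -0.47 ± 0.14. The 8 genes induced by glucocorticoids summed to 423 to 676 CPM in placebo and 445 to 669 in inhibitor libraries.

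Between the limbs, the members' median absolute log2 difference was 0.13 with placebo and 0.07 with the inhibitor, beside 0.17 and 0.11 over all genes. With placebo, Npas2 was higher in the injured limb, without overlap and in 4 of 4 stems, at a log2 difference of 1.03 ± 0.38, and 0.87% of all genes were higher without overlap. Cry1 was lower in 4 of 4 stems, at -0.44 ± 0.16, with overlapping groups. The other 8 members lay between -0.30 and 0.03, a range that covers Arntl (-0.30 ± 0.32) and Nr1d1 (-0.24 ± 0.16). The SEs of all injury differences come from the fit without the stem, so they include the spread between stems. In edgeR 0 genes (0%) passed the adjusted threshold, 1116 (7.24%) had an unadjusted p under 0.05, with Npas2 and Cry1 as the members, and DESeq2 called 2 genes and no member. Without injured placebo 4, edgeR called 3 genes.

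With the inhibitor, all 10 members differed between the limbs by -0.23 to 0.08 on the log2 scale. Nr1d1 was lower in the injured limb of 4 of 4 stems, by a log2 difference of -0.16 ± 0.16. The share of all genes with the same direction in 4 of 4 stems was not computed for either drink, so such counts describe the members only. EdgeR called 0 genes (0%), 202 (1.31%) had an unadjusted p under 0.05 with no member, and DESeq2 called 1 gene. Averaged over both drinks, the injury differences were 0.41 ± 0.26 for Npas2, -0.22 ± 0.12 for Cry1 and -0.20 ± 0.11 for Nr1d1, and the other 7 lay between -0.17 and 0.06. That average had 0 genes called (0%) by edgeR, 757 (4.91%) with no member at an unadjusted p of 0.05, and 0 called by DESeq2.

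The difference of the injury effects, inhibitor minus placebo, was -1.25 ± 0.52 for Npas2 and 0.44 ± 0.23 for Cry1. The remaining members lay between -0.19 and 0.25. It passed the threshold for no gene (0%) in edgeR, where 424 genes (2.75%) and 1 member, Npas2, had an unadjusted p under 0.05, and for none in DESeq2. The drink comparisons and the injury comparisons share libraries, and their values are given side by side only.

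The healthy and injured limbs of a stem carried similar levels of several clock genes. After subtracting the group means, the mean absolute log2 difference of Arntl was 0.12 between the limbs of a stem (8 pairs) and 0.48 between limbs of different stems on the same drink (24 pairs). The ratio of these, 0.25, was reached or undercut by 0.214% of the genes tested. The between-stem value of Arntl leans on placebo 1, at 43.0 and 28.2 CPM beside 13.4 to 18.3 in placebo 2 to 4. No ratio with placebo 1 alone left out was computed. For Per2 the values were 0.23 and 0.62, a ratio of 0.38, and for Per3 0.19 and 0.48, a ratio of 0.40 (1.06% and 1.42% of genes at or below). With the 4 stems that hold a library high in joint markers left out, the ratio of Per2 was 0.80, with 52.3% of genes at or below it, and that of Per3 0.17 (4.29%). Placebo 1 is then the lone placebo stem and its deviations are 0 by construction, so these ratios are partly fixed. Ratios were 0.61 for Per1, 0.64 for Nr1d1, 0.66 for Cry1, 0.75 for Npas2, 0.90 for Clock, 0.94 for Nr1d2 and 1.16 for Cry2. Thus 9 of 10 members lay below 1, beside 49.8% of all genes, and the likeness of the limbs was part of how the genes were chosen.

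**Figure D3:**
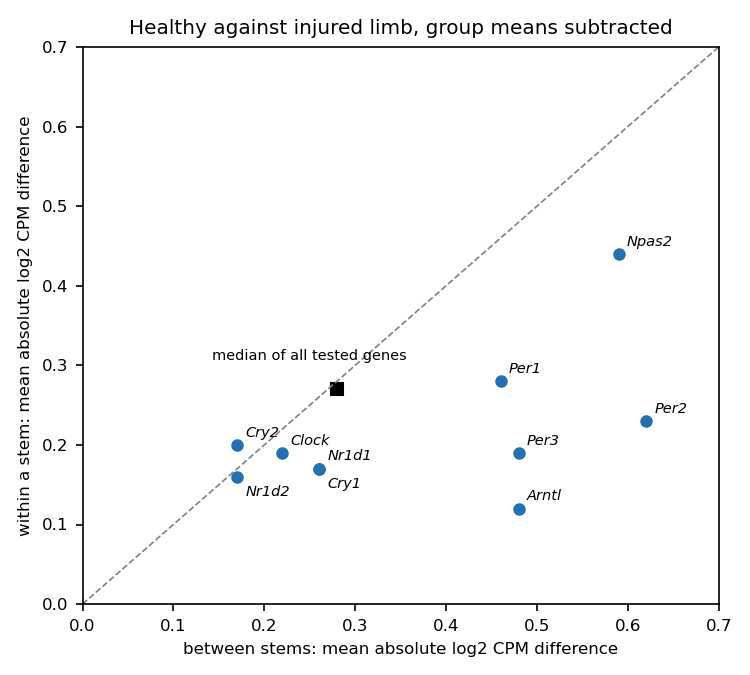
Each point is a core clock gene, with its mean absolute log2 CPM difference between limbs of different stems on the horizontal axis and between the limbs of 1 stem on the vertical axis, group means subtracted; the dashed line marks equality and the square the median of all tested genes. Arntl (0.48 and 0.12) and Per2 (0.62 and 0.23) lie far below the line, and Cry2 (0.17 and 0.20) lies above it.

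In 4 stems only 1 limb was high in Prg4, the lubricin of the joint surface, and the members' values of their limbs differed to varying degrees. Prg4 was 251 and 6.54 CPM in healthy and injured placebo 4, where Per2 was 10.8 and 11.5 and Arntl 13.4 and 14.5, but Per1 was 38.3 and 53.6. It was 19.5 and 286 CPM in placebo 3, where Arntl was 17.4 and 15.8, but Per1 was 52.2 and 35.3 and Per3 41.0 and 24.4. Arntl was thus closer between these limbs than Per1. In placebo 2, Prg4 was 7.32 and 220 CPM, Arntl 18.3 and 16.4, Clock 46.4 and 33.0 and Nr1d1 238 and 165. Cry1 was 15.2 and 10.5 CPM in placebo 2, and Npas2 was 0.416 and 1.88 in placebo 3. Per2 was 5.06 and 5.81 CPM in placebo 2 and 9.11 and 7.25 in placebo 3. In inhibitor 1, Prg4 was 169 and 13 CPM, with Arntl at 35.6 and 36.0 and Per2 at 3.52 and 3.49. Per1 was 23.3 and 19.0 CPM in that stem, and Npas2 4.16 and 2.82. The part of joint tissue in these values was not tested.

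Arntl and Per2 lay on opposite sides across the libraries. Arntl counts were 10.1 to 21.3 times those of Per2 in healthy inhibitor and 9.27 to 23.4 times in injured inhibitor libraries. In injured placebo the ratio was 1.25 to 5.75, and in healthy placebo 1.24 to 11.1, where the highest value was that of placebo 1. As counts per gene are not scaled for length, the ratio serves to compare libraries, not the genes. The ratio of Arntl to Per1 was 0.27 to 1.1 in placebo and 1.53 to 3.49 in inhibitor libraries. These ranges did not overlap, but neither did those of Per1 alone, and ratios of other gene pairs over all genes were not computed.

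**Figure D4:**
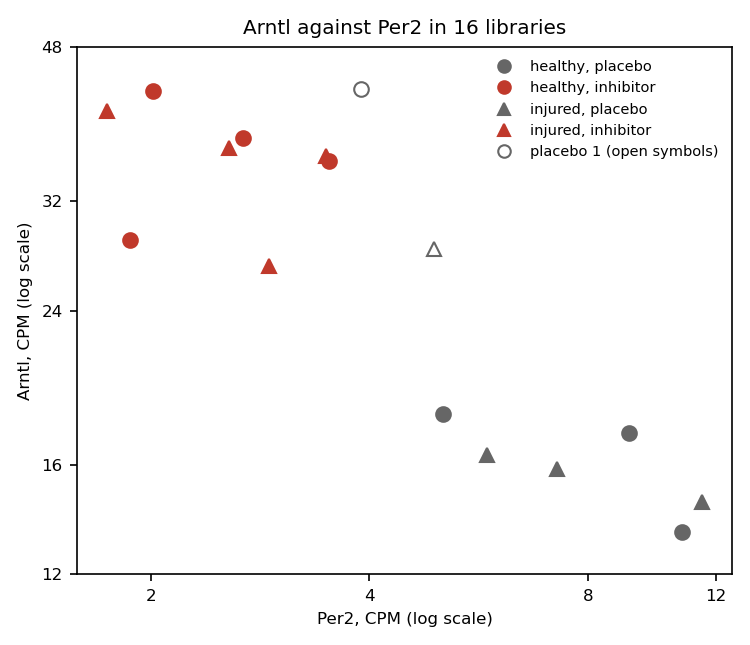
Each symbol is 1 of 16 libraries, with Per2 on the horizontal and Arntl on the vertical axis, both in CPM on log scales; colour marks the drink, shape the limb, and open symbols are placebo 1. Inhibitor libraries lie at the upper left (Per2 at most 3.52 CPM, Arntl at least 27), placebo 2 to 4 at the lower right, and placebo 1 lies between them in Per2 (3.89 and 4.91 CPM) but at inhibitor levels in Arntl (43.0 and 28.2).

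Placebo 1 did not differ from the other placebo stems in every clock gene. Its Arntl (43.0 and 28.2 CPM), Clock (48.3 and 55.7), Per2 (3.89 and 4.91) and Per3 (19.7 and 20.1) lay outside the range of placebo 2 to 4 in both limbs, in each case towards the inhibitor libraries. Per1, Cry2, Nr1d1 and Nr1d2 lay within the range of placebo 2 to 4 in both limbs. Cry1 was in that range in the injured limb only (13.0 CPM), and 23.4 CPM in the healthy limb. Npas2 was in its range of 0.416 to 2.33 CPM in the healthy limb only (1.28), and 2.99 CPM in the injured limb. The cause was not tested.

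Other genes of the clock were read from fixed lists, and none passed the adjusted threshold of edgeR in any comparison. Of 10 output and feedback genes, 2 were above and 8 below 0 for the inhibitor in each limb, with medians of -0.51 in healthy and -0.58 in injured muscle. Dbp, a D-box activator and direct target of the clock pair, was 16, 52.8, 133 and 113 CPM in healthy placebo and 13.4, 75.8, 105 and 114 in injured placebo 1 to 4. In inhibitor libraries it was 6.31 to 19.1 CPM. Placebo 1 lay inside that range and the other 6 placebo libraries lay far above it. The log2 difference of Dbp was -2.73 ± 0.70 in healthy and -3.05 ± 0.71 in injured muscle.

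Nfil3, which represses through the same D-boxes, was 60.1, 18.2, 12.4 and 11.5 CPM in healthy placebo and 50.2, 18.6, 12.6 and 11.8 in injured placebo 1 to 4. The inhibitor libraries held 35.1 to 65.6 CPM. Placebo 1 again lay inside the inhibitor range and placebo 2 to 4 below it, with a log2 difference of 0.91 ± 0.56 in healthy and 1.15 ± 0.56 in injured muscle. Ciart, an inhibitor of the clock pair, was at -1.57 ± 0.54 and -1.96 ± 0.55, with 3.74 CPM as its highest value. Tef and Hlf, the other D-box activators, were at -0.40 ± 0.16 and -0.39 ± 0.23 in healthy and -0.45 ± 0.16 and -0.40 ± 0.24 in injured muscle. Bhlhe41, an E-box repressor, was at -0.48 ± 0.37 and -0.61 ± 0.37. Its relative Bhlhe40 was 163 and 147 CPM in placebo 1, 122 to 169 in placebo 2 to 4 and 81.4 to 120 in the inhibitor libraries. Placebo 1 thus lay with the other placebo libraries in Bhlhe40, unlike in Dbp and Nfil3. Fkbp5, a glucocorticoid target picked after its values were seen, was 63.0 and 43.4 CPM in placebo 1, 16.9 to 28.8 in placebo 2 to 4 and 25.4 to 61.0 in the inhibitor libraries. Of the 8 glucocorticoid-induced genes it belongs to, 4 were above 0 for the inhibitor in healthy (median 0.04) and 3 in injured muscle (median -0.08).

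**Figure D5:**
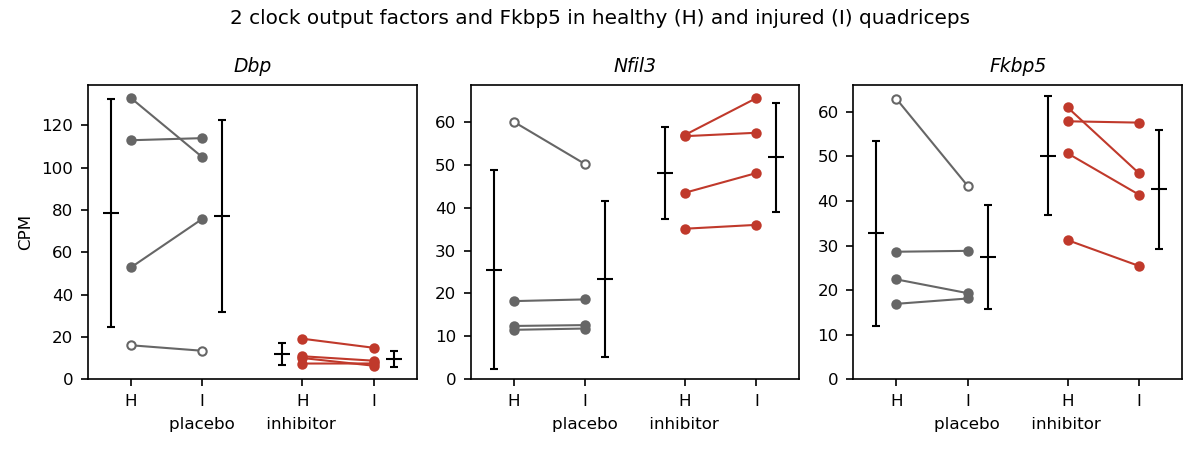
Panels plot Dbp, Nfil3 and Fkbp5 in CPM (linear axes from 0) in healthy (H) and injured (I) quadriceps under placebo (grey) and inhibitor (red); lines join the limbs of a stem, open points are placebo 1, and bars are the mean ± SD of 4 libraries. The open points of Dbp (16 and 13.4) and Nfil3 (60.1 and 50.2) lie within the range of the red points.

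Lists of modifiers of clock proteins had medians near 0 for the inhibitor, with single members further off. Of 10 kinases and phosphatases, 3 were above 0 in healthy and 6 in injured muscle, with medians of -0.03 and 0.04. The 12 cofactors had medians of -0.03 and -0.02, with 3 and 4 above 0 and the lowest values in Arntl2, a paralogue of Arntl (-0.54 ± 0.29 and -0.48 ± 0.29), and 5 measured genes of the ubiquitin system had medians of -0.01 and 0.07, with 2 and 3 above 0. Rora, a receptor that activates Arntl, was at -0.06 ± 0.15 in healthy and 0.04 ± 0.15 in injured muscle. The 9 muscle genes often described as rhythmic had medians of 0.12 and 0.25, with 6 and 7 above 0, and held members far from 0 in both directions. Coq10b, of coenzyme Q function, was at -1.44 ± 0.28 in healthy and -1.31 ± 0.27 in injured muscle, and Pdk4, a kinase that restrains pyruvate dehydrogenase, at 1.42 ± 0.55 and 1.59 ± 0.55.

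Likeness of pattern was measured for Arntl and Nr1d1 by Pearson's r of log2 CPM deviations from the 4 group means, over 16 libraries that share stems. Nfil3 (0.95), Wdfy1 (0.94), Tmem52 (0.91), Gm15459 (0.91) and Zim1 (0.90) were most like Arntl. Most opposed to it were 1700025G04Rik (-0.93), Cep83os (-0.92), Ptpn13 (-0.92), Dzip1 (-0.91) and Dbp (-0.90). Among the members, r with Arntl was 0.76 for Cry1, 0.71 for Clock, -0.77 for Per3, -0.67 for Per2 and 0.12 for Per1. It was 0.46 for Npas2, -0.30 for Cry2, -0.33 for Nr1d2 and 0 for Nr1d1. Both libraries of placebo 1 are far from the mean of their group in Arntl, which all of these values include. Most like Nr1d1 were Bhlhe40 (0.86), an E-box repressor, Ppp6r1 (0.85), Cyp26b1 (0.84), Yae1d1 (0.83) and Isoc1 (0.83), and most opposed were Tmod3 (-0.87), Iqcc (-0.86), Slc5a3 (-0.84), Tlr4 (-0.83) and En1 (-0.83).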

How the data were processed

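RNA of 16 quadriceps libraries was measured by sequencing at Novogene, after isolation with TRIzol and a column kit, per the labels' protocols. The deposited table holds expected counts per Ensembl gene, not normalized; STAR, Partek and DESeq2 with GRCm38/mm10 are named in the submitters' processing notes, with no role or version. The annotation release is not given in the sources used here. Exact whole numbers made up all but 33.8% of the values, and 24.2% were off by over 0.01. Reads shared by near-identical genes, or by overlapping genes on opposite strands, could have been split by the authors' counting.

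Counts were rounded. GENCODE M21 gave 17338 genes a symbol, coordinates and exon length. EdgeR 4.0.16 in R 4.3.3 removed 1959 genes (filterByExpr, minimum count 10), scaled by TMM and fitted 1 mean per group over the 16 libraries, with robust quasi-likelihood dispersions (12 residual degrees of freedom, common BCV 0.284). Tests were two-sided, adjusted by Benjamini-Hochberg over 15411 genes at 0.05. P-values measure only the spread between these samples. SE is the log2 difference divided by the root of F. Log2 CPM for likeness and limb differences used a prior count of 2.

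The members, gene lists, comparisons and the first set of alternatives were chosen with earlier results of these data known. The addition of the limbs of a stem and the removal of placebo 1 were chosen after the members' values were seen. The rule for named genes was all 10 members, any called gene of the clock lists, and Dbp, Tef, Hlf, Nfil3, Ciart and Bhlhe41 always; 1 further gene of that rule is not reported here. Rora, Arntl2, Coq10b, Pdk4, Bhlhe40, Prg4 and Fkbp5 were added after their values were seen, and the 5 most alike and most opposed genes of Arntl were ranked among genes with a mean log2 CPM of at least 1. Alternatives were DESeq2 1.42.0 as a test, its size factors, no filter on low counts, the stem or the replicate number as a block, each library left out in turn, and removal of the 4 libraries with high joint markers. Python 3.11.15 with matplotlib 3.10.9 drew the figures.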

Additional observations from a re-analysis of the deposited data

Results flagged for a closer look

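In groups of 4 libraries, 5 of the 40 combinations of member and group held a library whose gap to its nearest neighbour exceeded Dixon's critical share of the range. Chance gives about 1 in 20 for independent groups, but limbs of a stem are not independent and the genes were chosen with these values known, so the count is a description. Arntl was 43.0 CPM in healthy placebo 1 and 28.2 CPM in injured placebo 1, each the highest of its group. Npas2 was 0.416 CPM in healthy placebo 3, the lowest of its group. Per1 was 53.6 CPM in injured placebo 4 and Cry2 was 37.6 CPM in healthy inhibitor 2, each the highest of its group.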

How the results depend on the processing

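No member's inhibitor difference changed sign in any alternative run, in either limb or with the limbs of a stem added. The injury differences lay near 0 and did change sign. Without the filter on low counts, Cry2 was -0.005 for injury with placebo and Cry1 -0.0008 for injury with the inhibitor. Without the 4 libraries high in joint markers, injury with placebo was 0.07 for Clock, 0.10 for Per1, 0.07 for Per3 and 0.04 for Nr1d2. The same removal gave 0.005, 0.01, 0.04 and 0.02 for these genes in injury averaged over both drinks. It gave -0.12 for Clock, -0.17 for Per2, -0.05 for Per3, -0.04 for Nr1d1 and -0.03 for Nr1d2 in the difference of the injury effects. Without placebo 1, injury with placebo was 0.03 for Per1 and -0.02 for Per2. With each library left out in turn, for injury with placebo the log2 differences that crossed 0 ranged from -0.58 to 0.19 for Arntl, -0.3 to 0.02 for Clock, -0.1 to 0.09 for Cry2, -0.12 to 0.03 for Nr1d2, -0.23 to 0.12 for Per1 and -0.27 to 0.29 for Per2. The ranges for injury with the inhibitor were -0.14 to 0.06 for Arntl, -0.09 to 0.002 for Clock, -0.09 to 0.07 for Cry1, -0.4 to 0.01 for Npas2, -0.1 to 0.09 for Nr1d2, -0.07 to 0.28 for Per2 and -0.12 to 0.21 for Per3. The ranges for injury averaged over both drinks were -0.31 to 0.07 for Arntl, -0.07 to 0.03 for Nr1d2, -0.09 to 0.18 for Per2 and -0.21 to 0.01 for Per3. The ranges for the difference of the injury effects were -0.24 to 0.53 for Arntl, -0.08 to 0.24 for Clock, -0.05 to 0.22 for Nr1d1, -0.06 to 0.13 for Nr1d2, -0.35 to 0.02 for Per1 and -0.21 to 0.35 for Per2. The cause was not tested. EdgeR called 0 genes in every comparison. DESeq2 called 2 genes for injury with placebo, 1 for injury with the inhibitor, 11 for the inhibitor in healthy and 256 in injured muscle, and 573 with the limbs added. Without both libraries of placebo 1, edgeR called 6 genes in healthy muscle (Arntl among them, adjusted p = 0.014) and 14 in injured muscle (Arntl, adjusted p = 0.01, and Cry1, adjusted p = 0.016). Counts over single libraries left out ran from 0 to 3 for injury with placebo, 0 to 1 for the inhibitor in healthy and 0 to 38 in injured muscle, and from 0 to 1541 with the limbs added. With the replicate number as a replicate block, edgeR called 1 gene for the inhibitor in injured muscle and 0 in the other comparisons, and with the stem as a replicate block it called 0 in each injury comparison. The blocks rest on shared names: over all genes, deviations of the limbs of a stem from their group means correlated at 0.47, -0.18, -0.11 and -0.53 in placebo 1 to 4 and at 0.23, -0.04, -0.01 and -0.10 in inhibitor 1 to 4. The median ratio of limb differences within a stem to those between stems was 0.65, also on a log2(CPM + 1) scale, and 0.38 without the 4 stems that hold a library high in joint markers, where the median of all genes moved from 1.0 to 0.77. Placebo 1 is then the lone placebo stem, with deviations of 0 by construction. Npas2, with as few as 10 counts in a library, is the member whose values depth limits most.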
